A study of Mus musculus with 35 samples.

Results

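The comparison described here asked whether the difference between an anterior and a posterior portion of the amygdala depended on how mice were housed. It used the 16 mice that had a library of each portion, matched by the mouse code in the labels, which gave 32 of the 35 libraries of the series. Among these mice 9 lived in standard housing (4 C57BL/6J and 5 B6D2F1N) and 7 in enriched housing (2 C57BL/6J and 5 B6D2F1N). The remaining 3 of 19 mice, all enriched, had only a posterior library in the series and were not used unless stated. The study describes more anterior libraries than the series holds. C57BL/6J is an inbred strain, and B6D2F1N is a hybrid of C57BL/6 and DBA/2 background. All animals were female. From postnatal day 77 the enriched mice had access to a playground for 1 h per day, while standard mice received mock handling. All mice, in either housing, had been trained at touchscreens from postnatal day 70 for 37 to 90 days and had then been tested for cognitive judgment bias over 5 days. The tissue was basolateral amygdala cut out with a laser capture microscope, so each library pools many cells. A lower level of a gene can mean fewer cells of a type or less RNA per cell, and these cannot be told apart.

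The amygdala is a group of nuclei in the temporal lobe that assigns emotional value to sensory cues. Its basolateral part consists mainly of glutamatergic projection neurons with fewer GABAergic interneurons, and gene expression and connections of these neurons differ along its length from front to back. Environmental enrichment is known to act on synapses, vessels and activity-regulated genes in other brain regions, and a housing effect that differs between the portions would appear in these data as an interaction of portion and housing.

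In the following, a portion change is the log2 level in the posterior library minus that in the anterior library of the same mouse. The interaction is the portion change in enriched mice minus that in standard mice, with the mouse as a block and a term that lets both strains differ in their portion change. Levels are CPM (counts scaled to a common library size) scaled by TMM factors, and changes of single mice carry a prior count of 2. The standard mice are called S1 to S4 (C57BL/6J) and S5 to S9 (B6D2F1N), and the enriched mice E1 and E2 (C57BL/6J) and E3 to E7 (B6D2F1N). The portions carry the names given in the labels. The coordinates in the study's methods run opposite to the usual front-to-back order, and if the names were exchanged, every sign of a portion change and of the interaction would turn.

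The 32 libraries held between 17121764 and 27352623 counts on genes, and between 18580 and 25531 genes had at least 1 count. Some mice stood apart. Mouse S5 had 0 counts of Xist, the RNA that coats the inactive X chromosome of female cells, in both of its libraries, and no library of any mouse had more than 1 count of Uty, Kdm5d, Ddx3y or Eif2s3y, which lie on the Y chromosome. The anterior libraries of E4 and E7 had the fewest genes with a count, 18580 and 18959. In E1 and S7 the direction of the portion changes followed that of the other mice least. Of the genes called over the other 15 mice, 65.3% had the same sign in E1 and 63.8% in S7. This share was 76.1% to 90.8% in the other 14 mice. The main counts, and the values that moved most with these mice, are also given without them.

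Nearly all portion genes had the same direction in both housings, and no gene passed the test for a portion change that depended on housing. With edgeR's quasi-likelihood test, 0 of 29437 genes (0.0%) had an adjusted interaction p of at most 0.05, and 888 genes (3.02%) had an unadjusted p under 0.05. Of these, the interaction was above 0 in 537 (1.82%) and below 0 in 351 (1.19%). Here and below, a greater or lower change in enriched mice means an interaction above or below 0. A larger change refers to absolute size. DESeq2 called 1 gene, Itpkc, and had 984 genes at an unadjusted p under 0.05. A fit with limma voom over all 35 libraries called 0 genes, with 1616 at an unadjusted p under 0.05. In contrast, 1132 genes passed in standard mice (452 higher in the posterior portion, 1.54% of all genes, and 680 lower, 2.31%), 857 in enriched mice (378 higher, 1.28%, and 479 lower, 1.63%) and 2294 over both housings (1053 higher, 3.58%, and 1241 lower, 4.22%). Leaving out E2 brought the enriched count from 857 to 484.

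The lists of genes called in standard and in enriched mice shared 549 genes, 48.5% of the standard list and 64.1% of the enriched list. A gene on 1 list alone was not thereby shown to depend on housing. None of the 583 genes called in standard mice alone and none of the 308 called in enriched mice alone had an adjusted interaction p below 1 (edgeR), and 81 and 114 of them, respectively, had an unadjusted p under 0.05. Directions were mostly shared, and no mouse belongs to both housings, although the genes of each list were fitted with a common spread. Of the 1132 genes called in standard mice, 1113 (98.3%) had the same sign in enriched mice, and of the 857 called in enriched mice 849 (99.1%) had the same sign in standard mice. When each housing was fitted alone, 1443 of 1496 standard calls and 378 of 378 enriched calls kept the sign in the other housing. Over the 2294 portion genes the changes in both housings had a Pearson r of 0.904, which is across genes and describes genes selected for their mean change.

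**Figure D1:**
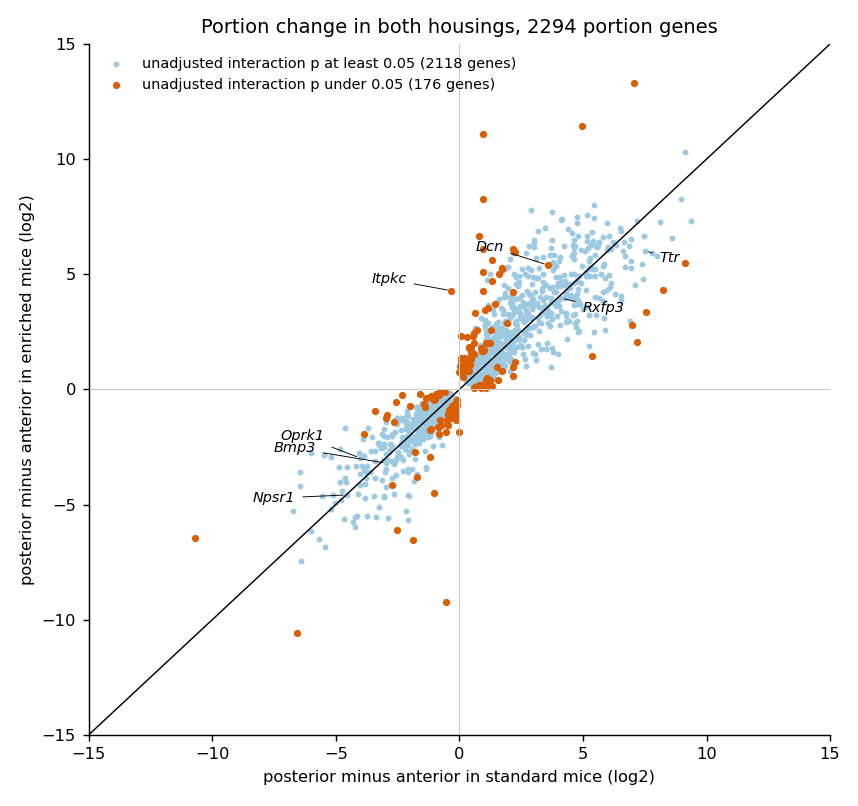
Portion change (log2, posterior minus anterior) in standard mice on the x axis and in enriched mice on the y axis for the 2294 genes called over both housings, with the line of equal change. The 176 genes with an unadjusted interaction p under 0.05 are in orange, and all but 2 of the 2294 genes have the same sign in both housings.

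Absence of calls does not show that the housings had equal portion changes. For the 15986 genes with a mean of at least 1 CPM, the 95% interval of the interaction reached a median of 0.74 on the log2 scale to either side of the estimate. For 1116 of the 2294 portion genes (48.7%) the whole interval lay between -1 and 1, so that a housing effect of 2-fold or more on their portion change lay outside it, and for the others such an effect was within the interval. Of the portion genes, which were chosen in the same libraries, 176 (7.67%) had an unadjusted interaction p under 0.05, beside 4.37% of the genes of at least 1 CPM. Among these 176, the larger change was in enriched mice for 125 and in standard mice for 51. Over all portion genes 1352 (58.9%) had the larger change in enriched mice, with a median ratio of 1.11. This share rested on single mice: it was 73.9% without E1 and 49.2% without S7, the mice whose signs followed the others least. In B6D2F1N mice alone it was 70.3% against 46.4% in C57BL/6J mice alone.

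The size of the portion difference per mouse was taken as the median absolute portion change over the 15986 genes. It lay between 0.345 and 0.617 in the 9 standard mice (median 0.478) and between 0.427 and 0.685 in the 7 enriched mice (median 0.596), so the groups overlapped. The mean was 0.574 ± 0.0956 (SD, n = 7) in enriched and 0.495 ± 0.0847 (SD, n = 9) in standard mice, and a two-sided exact permutation test with housing permuted within strain gave p = 0.104 for the difference of 0.079. The value of E1 (0.427) was the lowest and that of E6 (0.685) the highest of the enriched mice. Without E1 the difference was 0.104 and without S2 0.0942. Leaving out a mouse that opposes a difference enlarges it by construction, so no p-value is given for these. Without both E4 and E7, whose anterior libraries had the fewest genes, the difference was 0.0531 (exact permutation p = 0.336). The part of library quality in this difference was not tested.

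The 10 genes with the smallest portion p-values in each direction, at a mean of at least 1 CPM, are described first. Of these 20 genes, 18 had an interaction interval that included 0, and the exceptions were Dcn and Spag8. Of the 10 that were lower in the posterior portion, Bmp3, a secreted member of the bone morphogenetic protein family, was lower in 16 of 16 mice. Its portion change ranged from -4.64 to -1.59 in standard mice (median -3.04) and from -3.98 to -2.67 in enriched mice (median -3.29). The fitted changes were -2.98 ± 0.191 (SE) and -3.20 ± 0.225, and the interaction was -0.22 (95% interval -0.82 to 0.37). In CPM its median was 826.5 anterior and 100.6 posterior in standard mice, and 561.5 and 53.8 in enriched mice. Npsr1, the receptor of neuropeptide S, had a portion change of -4.55 ± 0.313 in standard and -4.58 ± 0.376 in enriched mice (interaction -0.03, interval -1.01 to 0.95). Its median CPM was 131.8 anterior and 4.71 posterior in standard mice, and 68.1 and 2.31 in enriched mice. Npsr1 overlaps genes on the other strand, whose reads cannot be told apart because strand-specific counting was not stated. Rtn4, which encodes the neurite outgrowth inhibitor Nogo, had the narrowest interval of these 10, from -0.57 to 0.32 around an interaction of -0.12.

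The remaining genes of this direction passed the test in each housing as well. Nptx2, a neuronal pentraxin that gathers AMPA receptors at synapses, had portion changes of -3.73 in standard and -3.31 in enriched mice. Vegfd, a growth factor of lymphatic vessels, had -3.92 and -3.31. Sstr2, a somatostatin receptor, had -2.35 ± 0.191 and -1.77 ± 0.226, the smallest interaction p of the 10 (interaction 0.58, interval -0.01 to 1.18, unadjusted p = 0.0614), and 5 of the 7 enriched mice lay above the highest standard mouse. E6 (-3.54) in turn lay below the lowest standard mouse. For Nrep, Dpy19l1, Igfbp6 and Slc36a1 the interaction lay between -0.34 and 0.12, and its interval included 0. Rtn4, Sstr2 and Dpy19l1 also overlap a gene on the other strand.

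Of the 10 genes higher in the posterior portion, Rxfp3, the receptor of relaxin-3, had a portion change from -0.05 to 6.84 in standard mice (median 4.33) and from 2.2 to 5.2 in enriched mice (median 3.57). It was higher in the posterior library of 8 of 9 standard and 7 of 7 enriched mice, the exception being S7. Trhr, the receptor of thyrotropin-releasing hormone, had fitted changes of 3.43 ± 0.324 in standard and 3.48 ± 0.383 in enriched mice, and its interaction of 0.05 had an interval from -0.96 to 1.06. Efnb3, an ephrin ligand in axon guidance, had 1.33 ± 0.15 and 1.57 ± 0.176 (interaction 0.24, interval -0.22 to 0.71). Nnat, an imprinted gene of developing neurons, had 1.99 and 1.94, and Fibin 3.53 and 3.17.

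Part of these genes belong to the lining of the ventricles. Ttr (transthyretin), the main secreted protein of the choroid plexus, Tmem212 of ciliated cells and 1500015O10Rik had portion changes of 6.01 to 7.51 in both housings. Anterior medians of Tmem212 and 1500015O10Rik were 0 and 0.0531 CPM in standard mice, and 0.138 and 0.046 CPM in enriched mice. The sizes of their changes are therefore uncertain. The median of Ttr was 4.64 CPM anterior and 1415 CPM posterior in standard mice, and 11.2 and 1699 CPM in enriched mice, with a highest value of 13700 CPM. All 10 choroid plexus markers and 11 of 12 ependymal markers were higher in the posterior portion over both housings, beside 3.58% of all genes. The choroid plexus markers summed to between 27.0 and 75.7 CPM in standard anterior, 29.5 and 1009 CPM in enriched anterior, 296.3 and 4486 CPM in standard posterior and 167.9 and 14890 CPM in enriched posterior libraries. The ependymal markers summed to between 10.6 and 57.5 CPM in anterior and between 21.3 and 297.9 CPM in posterior libraries. The part of these cells in the portion changes was not tested. None of the markers passed the interaction test (edgeR). The smallest p-values were those of Aqp1, a water channel, among choroid plexus markers (interaction -3.92 ± 1.92) and of Ak7, an adenylate kinase of cilia, among ependymal markers (3.71 ± 1.42), the only members of these lists with an unadjusted p under 0.05. The size of the Aqp1 estimate is uncertain, because its standard anterior libraries held 0 to 2 counts. Its interval was -7.84 to 0.01, and DESeq2 gave -2.175 (unadjusted p = 0.41). Single mice moved the estimates of both genes. Without E2 that of Aqp1 was -1.55 and that of Ak7 2.41, and without E3 that of Ak7 was 5.73. The Ak7 estimate was 0.60 when the mouse was not used as a block.

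Dcn, which encodes the matrix proteoglycan decorin, was the portion gene in which the housings were furthest apart among these 20. Its portion change was 3.58 ± 0.421 in standard and 5.4 ± 0.496 in enriched mice (interaction 1.82, interval 0.50 to 3.13, unadjusted p = 0.0218, adjusted p = 1, edgeR). The posterior libraries held 906 to 1749 CPM in the C57BL/6J standard mice, 1373 and 768.1 CPM in E1 and E2, 173.6 to 1071 CPM in the B6D2F1N enriched mice, and 55.8, 52.6, 8.67 and 40.3 CPM in the B6D2F1N standard mice S6 to S9. The fifth B6D2F1N standard mouse, S5, had 1651 CPM. Anterior libraries of all groups lay between 11.1 and 45.4 CPM. Within B6D2F1N the interaction was 3.32 (unadjusted p = 0.000151) and within C57BL/6J -0.73 (unadjusted p = 0.456). The difference of these had an adjusted p of 0.819 with all mice (edgeR). S5 opposes this difference, so no p-value without S5 is given. Kera, which encodes keratocan, another proteoglycan of this family, had a like pattern in counts. It had 0 counts in all 7 enriched anterior libraries and 23 to 309 counts in the enriched posterior libraries. S6 to S9 had 4, 30, 0 and 0 posterior counts, while S5 had 651 and the C57BL/6J standard mice 168 to 499. No fold change is given for Kera, because its enriched anterior libraries were all at 0, as were those of the C57BL/6J standard mice. Spag8, a gene of cilia and sperm, had portion changes of 1.93 ± 0.276 and 2.89 ± 0.327 (interaction 0.96, interval 0.09 to 1.82, unadjusted p = 0.0353).

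**Figure D2:**
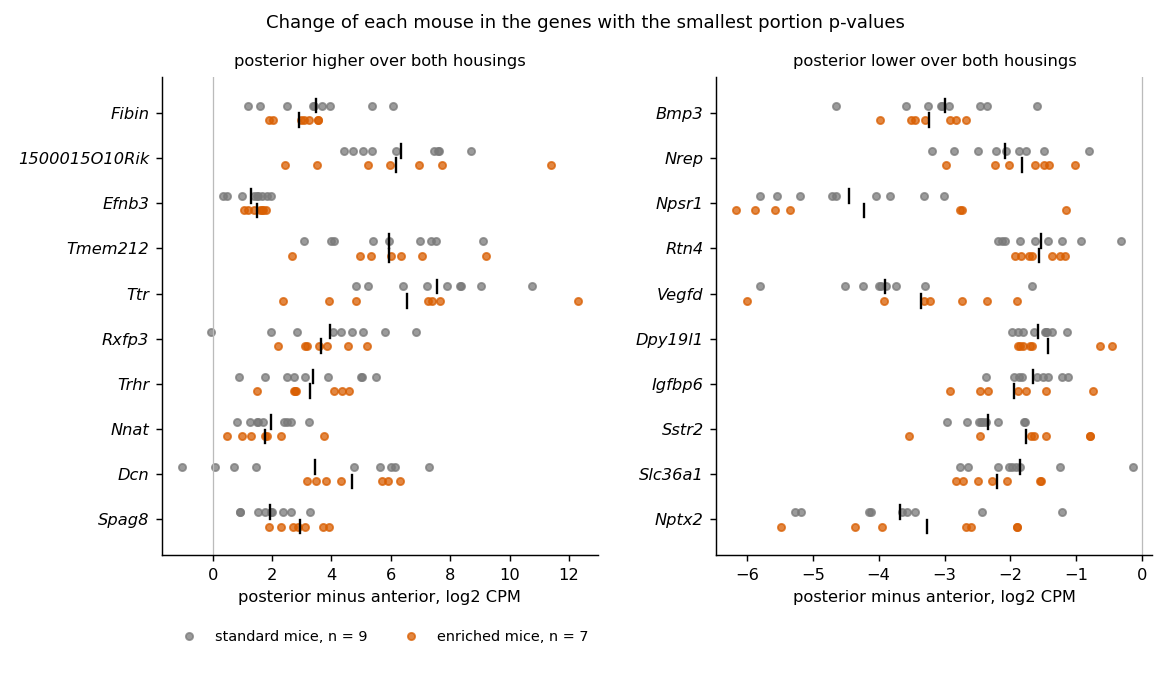
Portion change of each mouse (log2 CPM, posterior minus anterior, x axis) for the 10 genes higher and the 10 genes lower in the posterior portion with the smallest p-values over both housings. Grey points are the 9 standard mice, orange points the 7 enriched mice and black ticks group means, and in all 20 genes the ranges of both housings overlap.

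The genes with the smallest interaction p-values, 10 in each direction with a mean of at least 1 CPM, are described next as the ones ranked first, since none passed the test (adjusted p = 1 for each, edgeR). In 5 of the 10 with the greater change in enriched mice (Itpkc, Tpra1, Slc52a2, Ddr1 and Catip), the posterior portion was higher in enriched mice with an adjusted p of at most 0.05 (edgeR), and no portion change passed in standard mice. Itpkc, an inositol trisphosphate kinase that controls calcium signals (chr7:27207172-27228661, GRCm38), had portion changes from -1.59 to 1.8 in standard mice (median -0.64) and from 1.65 to 5.47 in enriched mice (median 3.19). All but 1 of the enriched mice lay above the highest standard mouse. The fitted change was -0.35 ± 0.623 in standard and 4.29 ± 0.834 in enriched mice (adjusted p = 0.0038, edgeR), and the interaction of 4.64 ± 1.03 had an unadjusted p of 0.000191. DESeq2 gave an interaction of 4.69 with an adjusted p of 0.00808. The counts are low: the anterior libraries of enriched mice held 0 to 9 counts and those of standard mice 3 to 92. The estimate of housing was -3.73 in the anterior portion (edgeR, unadjusted p = 0.000468, adjusted p = 0.79) and 0.87 in the posterior portion (unadjusted p = 0.187). Itpkc overlaps BC024978 on the other strand.

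Tpra1, a membrane protein with the build of a receptor (chr6:88902251-88912238), had a mean of 67.5 CPM. Its portion change lay between -0.60 and 0.11 in standard mice (median -0.17) and between -0.03 and 1.10 in enriched mice (median 0.70). Only E4 (-0.03) lay within the range of the standard mice. The fitted changes were -0.21 ± 0.134 and 0.63 ± 0.158, the interaction was 0.84 (interval 0.42 to 1.26), and leaving out any 1 mouse moved it between 0.77 and 0.95. DESeq2 gave it an adjusted p of 0.0501. Slc52a2, a riboflavin transporter, had portion changes from -0.94 to 0.35 and from -0.22 to 1.86, and 6 of 7 enriched mice lay above all standard mice (interaction 1.26, interval 0.61 to 1.91).

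Among the other genes with the greater change in enriched mice, Ddr1, a collagen receptor of oligodendrocytes and epithelial cells, had a portion change of 1.37 ± 0.228 in enriched mice that passed the test (adjusted p = 0.000603, edgeR), beside 0.23 ± 0.194 in standard mice. Its median posterior level was 62.3 CPM in enriched and 30.1 CPM in standard mice, while the anterior medians were 28.1 and 29.5 CPM. Catip, which encodes a protein of ciliary actin, had 2.30 ± 0.441 in enriched and 0.05 ± 0.372 in standard mice. In E4 its change of 6.03 rested on an anterior level of 0 CPM. Gsdmd, gasdermin D of pyroptosis, was lower in the posterior library of 9 of 9 standard mice (-1.98 to -0.23) and higher in 6 of 7 enriched mice (up to 5.39), at a mean of 2.82 CPM. Its interaction was 4.94 within B6D2F1N and 0.95 within C57BL/6J, where E1 had a change of -0.87 and E2 of 0.07. Emp1, an epithelial membrane protein, had 2.66 ± 0.696 and -0.85 ± 0.567 at 3.22 CPM. The anterior libraries of E4 and E7 had 0 counts of Emp1 and Itpkc, those of E5 and E7 had 0 of Gsdmd, and that of E4 had 0 of Catip. For Gsdmd the anterior libraries of E3, E4 and E6 held 11, 7 and 4 counts. Without both E4 and E7 the interaction was 3.87 for Itpkc, 2.84 for Gsdmd, 2.90 for Emp1 and 1.97 for Catip. The Gsdmd value still includes E5 with its 0 anterior counts.

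For Sema4a, a semaphorin of axon guidance, and Rgs11, a regulator of G protein signalling, the form was the opposite: the portions differed in standard mice and the enriched mice lay nearer to 0. Sema4a was lower in the posterior library of 9 of 9 standard mice (-1.89 to -0.93, median -1.24), with a fitted change of -1.36 ± 0.173 (adjusted p = 8.48e-06, edgeR). The enriched mice ranged from -1.71 to 0.57 (median -0.30), and 5 of 7 lay above all standard mice. Rgs11 had -1.60 ± 0.248 in standard mice (adjusted p = 0.000231, edgeR) and -0.21 ± 0.291 in enriched mice. Rgs11 overlaps Arhgdig on the other strand. Uhrf1bp1 had -1.04 ± 0.294 in standard mice, just inside the threshold (adjusted p = 0.0498, edgeR), and 0.56 ± 0.345 in enriched mice.

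In the other direction, Mpv17l, a membrane protein related to the mitochondrial protein Mpv17 (chr16:13903161-13949619), had the smallest interaction p of all genes. The portion change lay between 0.02 and 0.84 in the 9 standard mice (median 0.47), all above 0, and between -1.20 and 0.08 in the 7 enriched mice (median -0.91), of which 6 were below 0. The groups overlapped through E6 (0.08). Its interaction was -1.05 ± 0.231 (interval -1.52 to -0.58, unadjusted p = 9.76e-05), with -1.38 within B6D2F1N and -0.44 within C57BL/6J. Posterior levels were 51.7 to 89.6 CPM in standard and 34.4 to 47.2 CPM in enriched mice and did not overlap, while the anterior levels did (38.2 to 69.6 and 33.8 to 102.7 CPM). Housing within the posterior libraries gave -0.89 (unadjusted p = 4.12e-06, adjusted p = 0.113, edgeR). Leaving out S4 gave -0.94 and made Mpv17l the only gene past the threshold there. S4 had the lowest posterior level of the standard mice (51.7 CPM). Leaving it out therefore enlarges the difference by construction, and no p-value is given. The study had listed this gene (posterior portion) and Gsdmd (anterior portion) for housing in the same B6D2F1N mice, so neither is independent evidence.

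Gabrd encodes the delta subunit of GABA-A receptors outside synapses (chr4:155384980-155398112). Its portion change was below 0 in 7 of 7 enriched mice (-1.33 to -0.05, median -0.58) and above 0 in 5 of 9 standard mice (-0.71 to 1.25, median 0.91). The standard mice fell into separate ranges: S3, S6, S7, S8 and S9 lay between 0.91 and 1.25, and S1, S2, S4 and S5 between -0.71 and -0.17. The fitted change in enriched mice was -0.80 ± 0.217 (adjusted p = 0.0391, edgeR), and the interaction was -1.11 (interval -1.68 to -0.53). Ints9, a subunit of the Integrator complex, was higher in the posterior portion of 8 of 9 standard mice and lower in 6 of 7 enriched mice (interaction -0.91, interval -1.41 to -0.41). Kcnc2, a fast potassium channel of interneurons, had 0.60 ± 0.163 in standard mice (adjusted p = 0.0298, edgeR) and -0.27 ± 0.192 in enriched mice.

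Foxp1, a forkhead transcription factor of striatal and other neurons, had -0.88 ± 0.247 in enriched and 0.32 ± 0.210 in standard mice, with single standard mice as high as 2.02. The interaction of Foxp1 was -1.66 within B6D2F1N and -0.35 within C57BL/6J. Gsg1l, an auxiliary subunit of AMPA receptors, had -1.87 ± 0.372 in enriched mice (adjusted p = 0.00589, edgeR) and -0.03 ± 0.316 in standard mice. Arpp19, an inhibitor of protein phosphatase 2A, was lower in the posterior portion in both housings, by -0.74 ± 0.155 in standard and -1.56 ± 0.182 in enriched mice. AI593442 had -1.32 ± 0.176 in enriched mice (adjusted p = 2.73e-05, edgeR) and -0.51 ± 0.15 in standard mice (adjusted p = 0.0522). Ttbk2, a tau tubulin kinase, had -0.96 ± 0.166 in enriched mice, but 36.4% of the 72-base windows of its transcripts also occur in a transcript of another gene, so its counts are uncertain. Gm48482 completes this list (-1.25 ± 0.359).

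**Figure D3:**
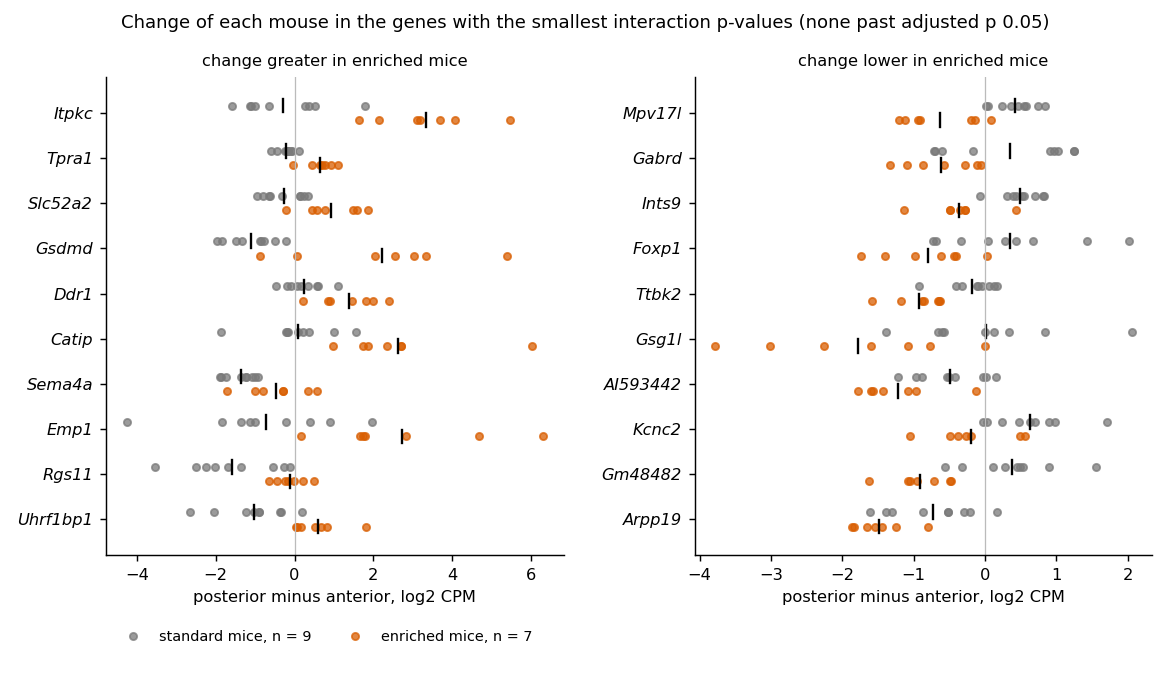
Portion change of each mouse (log2 CPM, posterior minus anterior, x axis) for the 20 genes with the smallest interaction p-values, 10 in each direction. Grey points are the 9 standard mice, orange points the 7 enriched mice and black ticks group means, and in each gene at least 1 mouse lies within the range of the other housing.

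Complete separation of the housings was rare, with 3 of 29437 genes (0.0102%). These were found after their values were seen, so their interactions are given without an interval or test. Nt5c2, a nucleotidase of purine metabolism, was higher in the posterior portion of 9 of 9 standard mice, from 0.37 to 0.68, while enriched mice lay between -0.13 and 0.26. It had median levels of 30.6 CPM anterior and 43.1 CPM posterior in standard mice, and 37.6 and 41.6 CPM in enriched mice, and its fitted change passed in standard mice (0.57 ± 0.133, adjusted p = 0.0085, edgeR). Its interaction was -0.49. Nelfa, a subunit of the negative elongation factor, lay between -1.14 and 0.22 in standard and between 0.26 and 0.95 in enriched mice (interaction 0.78). Nt5c2 overlaps Ina and Nelfa overlaps Nsd2 on the other strand. The third, Gm42963, had a mean of 0.211 CPM.

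Gene lists were used to describe cell types and pathways, and no list was tested as a group. The shares of all genes given beside them include many genes under 1 CPM, where small p-values were rarer. Over all genes the median interaction was 0.05, and 0 members of any of the 24 lists passed the test. The endothelial markers had a median interaction of 0.53, with 11 of 12 members above 0, and 5 of 12 had an unadjusted p under 0.05 in this direction, beside 1.82% of all genes. In standard mice their median portion change was -0.37 and in enriched mice 0.19, and 0 of the 12 passed for portion in either housing. Slc2a1, the glucose transporter of the blood-brain barrier, lay between -0.60 and 0.27 in standard mice (median -0.34) and between -0.24 and 0.95 in enriched mice (median 0.33), with an interaction of 0.61 (interval 0.20 to 1.01). Esam, an endothelial adhesion molecule, had 0.85 (interval 0.23 to 1.47), Cdh5, the cadherin of endothelial junctions, 1.20 and Tek, the angiopoietin receptor, 0.75. Cldn5, the claudin of tight junctions, was the member below 0 (-0.07). Without E4 and E7 the list median was 0.43 and 2 members had an unadjusted p under 0.05, and with E4 alone left out the median was 0.39. The 12 genes summed to 601.2 to 1269 CPM in standard anterior, 502.9 to 969.3 CPM in standard posterior, 592.8 to 1089 CPM in enriched anterior and 566.3 to 1530 CPM in enriched posterior libraries, and all 4 ranges overlapped.

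Mural cells, which wrap the vessels, had a median interaction of 0.52 with 7 of 8 markers above 0 (Kcnj8, a potassium channel of pericytes, 1.00, unadjusted p = 0.027, and Pdgfrb 0.66). Meningeal fibroblast markers had 0.99 with 9 of 10 above 0. Besides Dcn, their largest estimate was that of Col1a1 (2.29 ± 0.980, unadjusted p = 0.0532), a collagen. Ependymal markers had a median of 0.70 and choroid plexus markers -0.31, and the latter ranged from -1.01 without E5 to 0.19 without E1 and was 0.35 without both E4 and E7. Astrocyte markers had 0.09, with Aldh1l1 (0.94) and Fgfr3 (0.57) at unadjusted p of 0.0403 and 0.0439. Microglia (0.16, led by Tmem119 with 0.44), oligodendrocyte precursors (0.15, Pdgfra -0.33 and Gpr17 0.25) and oligodendrocytes (0.17, and -0.03 without both E4 and E7) had 0 members at an unadjusted p under 0.05. The oligodendrocyte genes varied widely within groups, and Mbp of myelin had an interaction of 0.83 with an interval from -0.14 to 1.79, and of -0.32 when the mouse was not used as a block.

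Neuronal markers gave a median interaction of -0.30 for excitatory neurons (7 of 10 below 0), 0.14 for inhibitory neurons and -0.86 for striatal and intercalated neurons (10 of 12 below 0), again with 0 members at an unadjusted p under 0.05. Slc17a6, a vesicular glutamate transporter, had a portion change of 1.82 ± 0.265 in standard mice (adjusted p = 0.000119, edgeR) and of 1.01 ± 0.312 in enriched mice (adjusted p = 0.103, interaction -0.81, interval -1.63 to 0.02). Its interaction was -2.47 within C57BL/6J and 0.12 within B6D2F1N. Gad1, the enzyme of GABA synthesis, had 0.38 (interval -0.10 to 0.87), with -0.14 within C57BL/6J and 0.65 within B6D2F1N.

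Of the GABA-A receptor subunits, which form the main inhibitory channels of the brain, 3 of 14 had an unadjusted p under 0.05, all with the lower change in enriched mice (beside 1.19% of all genes), and the list median was -0.19. Gabrb2, the beta 2 subunit, had portion changes of -0.75 ± 0.228 in enriched and -0.05 ± 0.194 in standard mice (interaction -0.69, interval -1.30 to -0.09, unadjusted p = 0.0289, and 0.0906 without S9). Gabrd, described above, was another of them. Interactions over the list reached up to 1.81 (Gabre), and 5 of the 14 were above 0.

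Of the immediate early genes, which neurons switch on within minutes of activity, 8 of 24 were lower and 1 higher in the posterior portion over both housings, beside 4.22% lower and 3.58% higher of all genes. The list median was -0.75 in standard and -0.72 in enriched mice, with a median interaction of 0.11. Nr4a3, a nuclear receptor, had the smallest interaction p of the list, with -1.09 ± 0.283 in standard mice (adjusted p = 0.0297, edgeR) and 0.18 ± 0.332 in enriched mice (interaction 1.27, interval 0.39 to 2.15, unadjusted p = 0.00852). It was lower in the posterior library of 9 of 9 standard mice and of 3 of 7 enriched mice, and the lowest values were those of S8 (-2.80) and S9 (-3.62). Egr4 had -2.49 at 0.722 CPM. Of 21 genes of synaptic vesicle release, 12 were lower and 1 higher in the posterior portion (4.22% and 3.58% of all genes), and 0 had an unadjusted interaction p under 0.05 (median change -0.71 in standard and -0.58 in enriched mice). Unc13c, a priming factor, had the smallest p (-0.63, unadjusted p = 0.0821), followed by Sv2a (0.27).

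Glutamate receptors had a median interaction of 0.00, with Grin3a (0.90, unadjusted p = 0.0145) and Grin2a (-0.69, unadjusted p = 0.0207) in different directions. Within C57BL/6J the estimate of Grin2a was 0.17 and within B6D2F1N -1.14, and 20.6% of its windows also occur in another gene. Neuropeptide receptors had a median of 0.51 and 1 member under 0.05, Sstr3 (1.23, unadjusted p = 0.0255), another somatostatin receptor, which had portion changes of -2.65 ± 0.321 in standard and -1.43 ± 0.376 in enriched mice. Neuropeptides had 0.25, with Tac1 (substance P) at -0.88 and Cck (cholecystokinin) at -0.75. Opioid peptides and receptors had 0.66. Oprk1, the kappa opioid receptor, was lower in the posterior portion in both housings (-4.02 ± 0.377 and -2.98 ± 0.444), and its interaction of 1.04 had an interval from -0.13 to 2.22, while Pomc, the precursor of endorphin, had 1.58 (unadjusted p = 0.0516). The interaction of Cck was 1.75 within C57BL/6J and -2.03 within B6D2F1N. Neurotrophic factors had 0.14, with Ntf3 (neurotrophin 3) at -1.61 (unadjusted p = 0.048, with 1.07 within C57BL/6J and -3.10 within B6D2F1N) and Vgf at 0.53. Glucocorticoid receptors and targets had 0.13, with Nr3c1, the receptor itself, at -0.44 (interval -0.92 to 0.03) and Zbtb16 at 0.52. Genes of immature neurons and dividing cells had -0.70, with Sox11 at -0.52 and Neurod1 at -0.89.

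Short lists of leading genes that the study chose on data that include these libraries are not independent evidence. They hold only a small part of the genes it called. Of 18 such genes for the portions, from which Xist was left out here, 17 were called in standard and 17 in enriched mice, 6 higher and 11 lower in each, and 1 (Kera) had an unadjusted interaction p under 0.05. Of 38 such genes for housing, which include a few named in its text, 11 did, 3 with the greater and 8 with the lower change in enriched mice (1.82% and 1.19% of all genes). They included Mpv17l and Gsdmd and the low genes Cuzd1 (0.503 CPM) and Gm42944 (0.716 CPM). Without E4 and E7 the 11 became 4.

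**Figure D4:**
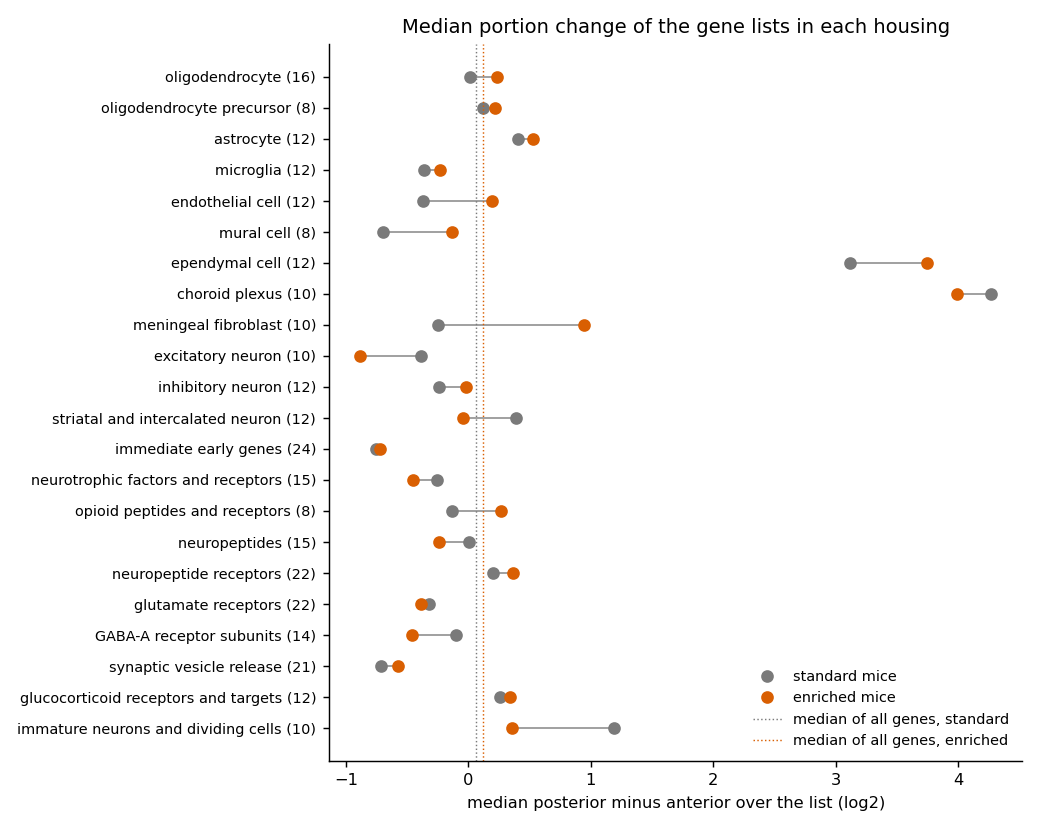
Median portion change (log2, posterior minus anterior, x axis) of 22 gene lists in standard mice (grey) and enriched mice (orange), with the number of genes tested in brackets. Dotted lines mark the medians over all genes, 0.06 in standard and 0.12 in enriched mice, and the longest horizontal distance is that of meningeal fibroblast markers, from -0.25 to 0.94.

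The interaction was also fitted within strains, and its difference between strains was tested. Within C57BL/6J, with 2 enriched and 4 standard mice, 0 genes passed and 894 had an unadjusted p under 0.05. Within B6D2F1N, with 5 of each, 0 passed and 1274 had an unadjusted p under 0.05. For the difference between strains 0 passed and 1313 (4.46%) had an unadjusted p under 0.05, with a smallest adjusted p of 0.0664 (edgeR). The 6 genes with the smallest p are described here after their values were seen. They were Syn1, which encodes synapsin I of synaptic vesicles, Ttc9b, Fbxo2, a ubiquitin ligase subunit enriched in brain, Rasl10a, a small GTPase, Epdr1 and the immediate early gene Egr1. In all 6 the interaction was above 0 in C57BL/6J and below 0 in B6D2F1N.

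In Syn1 the portion change lay between -1.68 and -0.59 in the C57BL/6J standard mice and was 0.23 and 0.38 in E1 and E2. In B6D2F1N the order was the opposite, since the enriched mice lay between -2.09 and -1.36 and the standard mice S6 to S9 between -0.24 and 0.00. The fifth B6D2F1N standard mouse, S5, had -1.63, as low as the C57BL/6J standard mice. The interaction was 1.51 within C57BL/6J (unadjusted p = 0.000752) and -1.38 within B6D2F1N (unadjusted p = 5.53e-05, edgeR). Their difference of -2.89 had an adjusted p of 0.0664 with all mice (edgeR). S5 opposes this difference, so no p-value without S5 is given. The overall interaction of Syn1, in which these cancel, was -0.39 (interval -1.08 to 0.31). Ttc9b had within-strain interactions of 2.69 and -2.78, Fbxo2 of 2.02 and -1.85, Rasl10a of 2.19 and -2.31, Epdr1 of 1.56 and -1.59, and Egr1 of 1.82 and -1.3. Syn1 overlaps Timp1 and Araf, Ttc9b overlaps Map3k10 and Rasl10a overlaps Gas2l1, each on the other strand.

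The calls for this difference changed with single mice, in number and in genes. Without S1 there were 5 (Syn1, Ttc9b, Fbxo2, Rasl10a, Egr1), without S5 also 5 (Syn1, Ttc9b, Rasl10a, Dcn and Hs3st2), without E1 2 (Fbxo2 and Emc10) and without E4 1 (Ttc9b). Without both E4 and E7 there were 0. Leaving out a mouse that opposes the difference, as S5 does in Syn1, Ttc9b, Rasl10a and Dcn, enlarges it by construction. The C57BL/6J side of the comparison rests on 2 enriched mice throughout.

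**Figure D5:**
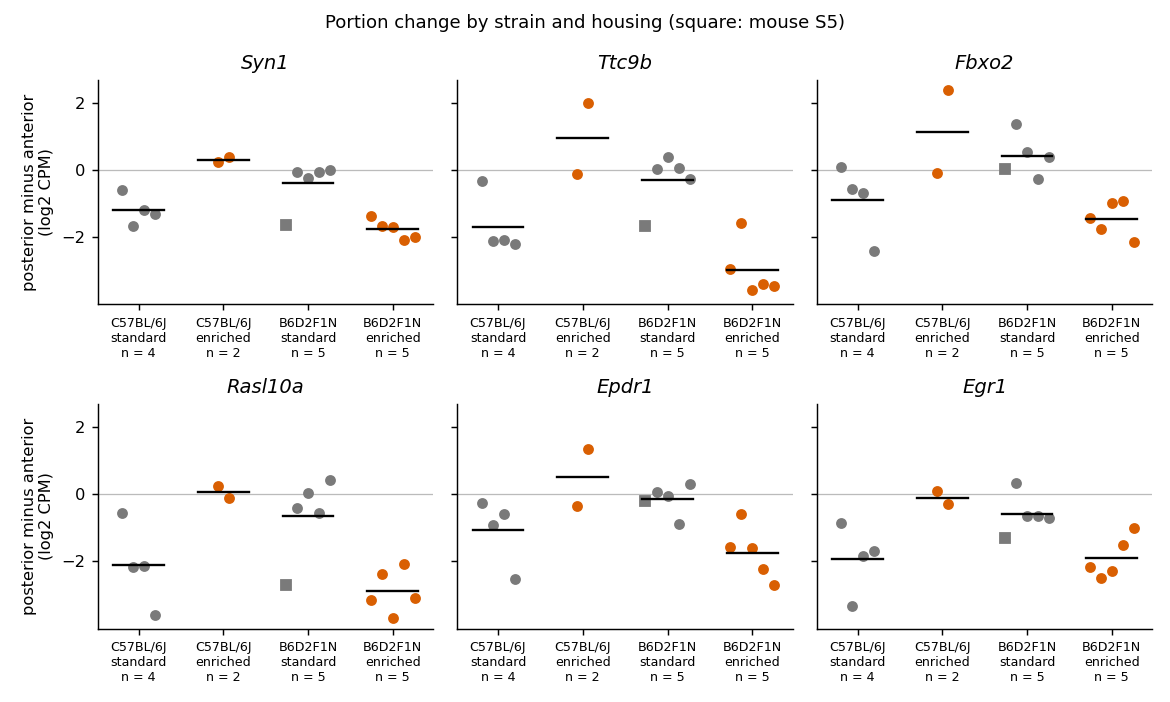
Portion change of each mouse (log2 CPM, posterior minus anterior, y axis) by strain and housing for the 6 genes whose interaction differed most between strains, with grey points for standard mice, orange for enriched mice and lines at group means. Mouse S5, drawn as a square, lies with the C57BL/6J standard mice for Syn1 (-1.63), Ttc9b (-1.67) and Rasl10a (-2.71).

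Housing compared within a portion, with both strains in the same fit, gave no calls either. The study used another design: it tested housing within each strain with DESeq2, and reported calls in both portions of each strain. In the anterior libraries of the paired mice 0 of 26353 genes passed and 1665 had an unadjusted p under 0.05, and in the posterior libraries 0 of 27364 passed and 2289 had an unadjusted p under 0.05 (edgeR).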

How the data were processed

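The series holds 35 RNA-seq libraries from laser-captured basolateral amygdala of 19 mice, of which 32 came from 16 mice with both portions. Per the labels and the study's methods, the authors used Trimmomatic 0.38 on reads of 72 bases and HISAT2 2.1.0 for alignment to GRCm38, and deposited raw counts per gene from HTSeq 0.11.2. The annotation release and the strand setting are not given in the sources used here. Non-gene entries of the count files were left out of library sizes: reads without a feature made up 13.7% to 26.4%, ambiguous reads 3.06% to 3.74% and reads without a unique position 6.23% to 10.3% in the paired libraries. Symbols, overlaps and positions came from GENCODE M21, which matched 52489 of 52636 gene identifiers. No pair of libraries had identical counts.

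Genes with at least 10 counts over the 32 libraries (29437) were tested with edgeR 4.0.16 (R 4.3.3), using TMM scaling, the quasi-likelihood test and Benjamini-Hochberg adjustment with a threshold of 0.05. The design held an indicator for each mouse, portion, portion by strain and portion by housing, with 19 columns and 13 residual degrees of freedom. Libraries were paired by the mouse codes of the labels, since both portions came from the same animal. Over 15986 genes when group means were subtracted, the 2 libraries of a mouse had a median r of 0.0336 (-0.0278 to 0.202), against -0.0190 for different mice of a group. Each mouse is a separate animal, but mice were housed in cages of 3 and cages were not modelled. The scripts were tested on simulated data.

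Named genes were the 10 with the smallest p in each direction and a mean of at least 1 CPM, for the interaction and for the portions over both housings. For each list the members with an unadjusted p under 0.05 were named, at most 4, or otherwise the 2 with the smallest p. Some genes that this rule names are not reported here. A few further genes are marked as chosen after their values were seen, and single list members are also given as the ends of a range. The members and lists were chosen with earlier results of these data known. Alternatives were DESeq2 1.42.0, limma 3.58.1 voom with the mouse as a random effect over 35 libraries, no replicate block, other filters, each strain alone, separate fits for each housing and leaving out each mouse. Leaving out both E4 and E7 was added after seeing the data. The size of the portion difference per mouse was compared with an exact permutation test of 3780 splits within strain. Depth limits low genes, and intervals cover the spread between these mice.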

Additional observations from a re-analysis of the deposited data

Results flagged for a closer look

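Of 150 groups of 4 or 5 mice tested for a single value far from the others (Dixon's test at the 95% level), 9 had one. Chance gives about 1 in 20, which is near this share, so any single flag may be due to chance. Values are portion changes (log2). Mouse S5 stood apart from the other B6D2F1N standard mice in Syn1 (-1.63, the others -0.24 to 0.00) and in Gabrd (-0.17, the others 0.91 to 1.25). Mouse S3 stood apart from the other C57BL/6J standard mice in Gabrd (1.02, the others -0.71 to -0.60) and in Nt5c2 (0.37, the others 0.64 to 0.68). In the same group S1 stood apart in Ttc9b (-0.33, the others -2.22 to -2.10), and S4 in the low gene Gm42963 (-2.57, the others 0). Among B6D2F1N enriched mice, E4 stood apart in Catip (6.03, the others 1.73 to 2.71), with 0 counts in its anterior library, E6 in Mpv17l (0.0787, the others -1.20 to -0.90), and E7 in Ints9 (0.44, the others -0.50 to -0.28).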

How the results depend on the processing

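For the portion-by-housing interaction, genes called numbered 0 in every alternative except DESeq2, which called 1 (Itpkc), and leaving out single mice kept it between 0 and 0, with 666 to 1187 genes at an unadjusted p under 0.05. DESeq2 called 2135 genes for the portions in standard mice, 2069 in enriched mice and 3878 over both. In enriched mice limma voom called 1364 and a separate fit 378. B6D2F1N mice alone gave 190 in standard mice and 1291 over both housings, and C57BL/6J mice alone gave 152 in enriched mice and 908 over both, with fewer samples in each fit. Leaving out 1 mouse gave 787 to 1295 in standard, 484 to 1049 in enriched and 1784 to 2392 over both, 0 to 5 for the difference between strains, 0 to 0 for housing in anterior and 0 to 1 in posterior libraries, and 0.0603 to 0.104 for the size of the portion difference per mouse. Without the mouse as a replicate block the 32 libraries gave 0 interaction calls (2150 at an unadjusted p under 0.05), 978 in standard, 729 in enriched and 2414 over both, and the block changed no other call. Without E4 and E7 these counts were 0, 1255, 618 and 2182.

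Among 73 named genes, 14 interaction values changed sign and 2102 kept their sign and side of the threshold. The sign changed in C57BL/6J mice alone for Dcn (-0.70), Gad1 (-0.11), Ntf3 (1.10), Cck (1.78), Grin2a (0.19) and Gm42944 (-0.15), and in B6D2F1N mice alone for Slc17a6 (0.10). Without the replicate block it changed for Mbp (-0.32 with 32 and -0.31 with 35 libraries), Mag (-0.14 in both, to 2 decimals) and Cck (0.064 with 32). The cause was not tested. Fitted values of Kera (-0.44) and Cuzd1 (0.023) in C57BL/6J mice alone also changed sign but are no fold changes, since every library of 1 portion was at 0 counts there (anterior for Kera, posterior for Cuzd1). The 20 portion genes kept their direction in all 580 alternative values.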
